A study of Homo sapiens with 12 samples.

Results

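Ribosome biogenesis and RNA polymerase I (Pol I) genes were examined as a set of 48 genes, chosen by symbol as the rows bearing those names in the authors' 3 deposited tables of differential expression. All 48 were in the table for compound 1, which holds 27126 genes. The SAHA table, with 18534 genes, and the a6 table, with 15255 genes, each held 47 of them, and NOP2 was absent from both. Its mean normalized count with compound 1 was 1.86. The lowest mean counts were 2.44 in the SAHA table, 0.145 in that of compound 1 and 9.31 in that of a6. Shares over all genes of a table thus cover different gene sets. MDA-MB-231 cells, which are a long-established human line from a triple-negative breast cancer, were used, and total RNA was sequenced 48 h after the start of treatment. The 4 groups were DMSO (Ctrl), SAHA at 2.5 µM, compound 1 at 2.5 µM and a6 at 2.5 µM, with 3 libraries each and 12 in all. SAHA, or vorinostat, inhibits histone deacetylases (HDACs); the labels present SAHA and compound 1 as single-target compounds and a6 as directed at HDACs and at G-quadruplexes (G4s), folded structures of guanine-rich nucleic acid. The libraries are called biological replicates with no word on separate cultures, so p-values measure the spread between these libraries, which may be technical. All groups are 1 cell line, with no genetic change named.

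Ribosomes are built in the nucleolus. Pol I, recruited to the ribosomal DNA promoter by UBTF, RRN3 and the TAF1 proteins of selectivity factor SL1, transcribes a long precursor of the ribosomal RNAs (rRNAs), which small nucleolar ribonucleoproteins (snoRNPs) modify and the small subunit processome and large subunit assembly factors fold and cut. In cancer cells this pathway is known to follow growth signals, and many of its genes are known targets of the transcription factor MYC, which binds the letters CACGTG (the E-box).

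No ribosome biogenesis or Pol I gene passed the test with any of the 3 compounds. The authors' DESeq2 Wald test, read at an adjusted p under 0.05, called 0 of 47 measured genes with SAHA, 0 of 48 with compound 1 and 0 of 47 with a6. Over all genes of the authors' deposited tables, 7.55% were called with SAHA, 0% with compound 1 and 0.583% with a6. The count of 0 is near that background with compound 1 and a6 and below it with SAHA, a difference that was not tested. With compound 1 the count says little, because small p-values were rare throughout its table. Only 0.199% of all its genes had an unadjusted p under 0.05, fewer than that threshold passes by chance. Where the average count reached 50, its Wald statistics had a standard deviation of 0.516, against 1.68 with SAHA and 1.11 with a6. The reason for this was not tested. At an unadjusted p under 0.05, TCOF1 was lower with SAHA, against 8.27% of all genes that were lower at that level. DDX47 was lower with compound 1, against 0.0922% of all genes. RRS1, PNO1 and EBNA1BP2 were higher with a6, against 3.06% of all genes. The values are relative to the other RNA in each library, and in bulk RNA fewer cells of a type and less RNA per cell cannot be told apart.

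Facts of the whole series that bear on these values are few. The deposited tables hold no value per library, so the depth and the spread of each library are unknown here, and each level below is a mean over 3 libraries computed from the mean normalized count and the fold change. Ctrl levels of 46 genes of the set were 0.03 lower in the a6 table than in the others on the log2 scale, and around such constants the tables differed with a standard deviation between 0.00114 and 0.00312. Markers of the line were high in Ctrl, with computed levels from 8246 for CD44 to 21100 for VIM, and ESR1 and PGR, which a triple-negative line should lack, stood at 0.660 and 0.337; ERBB2 was present at 2098. Of 6 fibroblast, 6 blood cell and 5 endothelial markers, the SAHA table held 4, 2 and 3. Their summed levels in Ctrl and with SAHA were 625 and 862 for fibroblasts, 35.7 and 104 for blood cells and 46.9 and 154 for endothelium, with LUM and VWF at 0.378 and 1.41 in Ctrl. LUM, CD14, KDR and VWF rose with SAHA in the authors' deposited table, at adjusted p from 7.58e-06 to 0.00223. No marker of these lists was called with compound 1 or a6, and the part of other cells in any result here was not tested.

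A sequence feature that the choice of genes did not use was more frequent in the promoters of the set than in other promoters, though most lacked it. RefSeq promoter windows (GRCh38.p14), reaching from 250 bases before to 50 bases after a gene's start, were found for 39 of the 48 genes. CACGTG, which reads the same on both strands, was in 16 of the 39 genes, or 41.0%. It was in 8.77% of all 27305 genes with a window and in 12.5% of the 10451 genes of the a6 table that have a window. In all 16, or 41.0% of the 39, a copy began between 20 bases before and 45 bases after the start. The same held for 2.92% of the a6 table's genes with a window, whether or not they hold the letters. This range was chosen after the positions were seen. The windows below run 5′ to 3′ on the gene's strand from 40 bases before to 30 bases after the start and are shown because the letters, in capitals, lie inside them; of such genes these 5 had the highest Wald statistics with a6. They lie at chr2:68157848-68157917 (PNO1, plus strand), chr1:19251765-19251834 (MRTO4, plus), chr22:30591881-30591950 (PES1, minus), chr3:51941875-51941944 (RRP9, minus) and chr16:69132609-69132678 (UTP4, plus).
PNO1: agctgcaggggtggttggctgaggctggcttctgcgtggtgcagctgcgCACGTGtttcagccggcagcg
MRTO4: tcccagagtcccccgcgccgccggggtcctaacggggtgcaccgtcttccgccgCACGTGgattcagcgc
PES1: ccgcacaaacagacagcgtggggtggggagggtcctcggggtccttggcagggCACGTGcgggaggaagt
RRP9: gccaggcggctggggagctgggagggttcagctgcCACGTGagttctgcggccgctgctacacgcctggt
UTP4: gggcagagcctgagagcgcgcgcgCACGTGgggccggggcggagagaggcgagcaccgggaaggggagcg

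Counting the base at the start as the first after it, CACGTG begins 10 bases after the start in PNO1, 15 in MRTO4 and 14 in PES1, and 5 bases before it in RRP9 and 16 in UTP4. The other genes with the letters were EBNA1BP2, WDR43, GNL3, NOP14, GAR1, BYSL, LTV1, NOP2, UTP20, NOP10 and FBL, so 15 of the 16 were measured in all tables and no Pol I subunit or initiation factor with a window held them. CCGGAA, counted on both strands, was in 23 of the 39 genes, or 59.0%, against 34.4% of the a6 table's genes. A pattern of 4 runs of GGG with 1 to 7 bases between them on either strand, the letters of a possible G4, was in 11 of 39, or 28.2%, against 41.4%. A match describes letters only. With a6, the 15 measured genes holding CACGTG showed a median log2 fold change of 0.25, with 12 above 0, and the 23 without it had 0.06 with 13 above 0. Among all genes of the authors' deposited a6 table with a window, the medians were -0.05 with the letters and -0.03 without. SAHA gave 0.09 in the set with the letters and -0.11 without, and compound 1 gave 0.14 and 0.12. Over all genes with a window, SAHA gave -0.10 with CACGTG and -0.01 without, and compound 1 gave 0.01 and 0.02. With a6, the medians in the set were 0.22 with CCGGAA and 0.07 without. For the pattern of GGG runs they were 0.16 and 0.14. These medians were not tested.

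**Figure D1:**
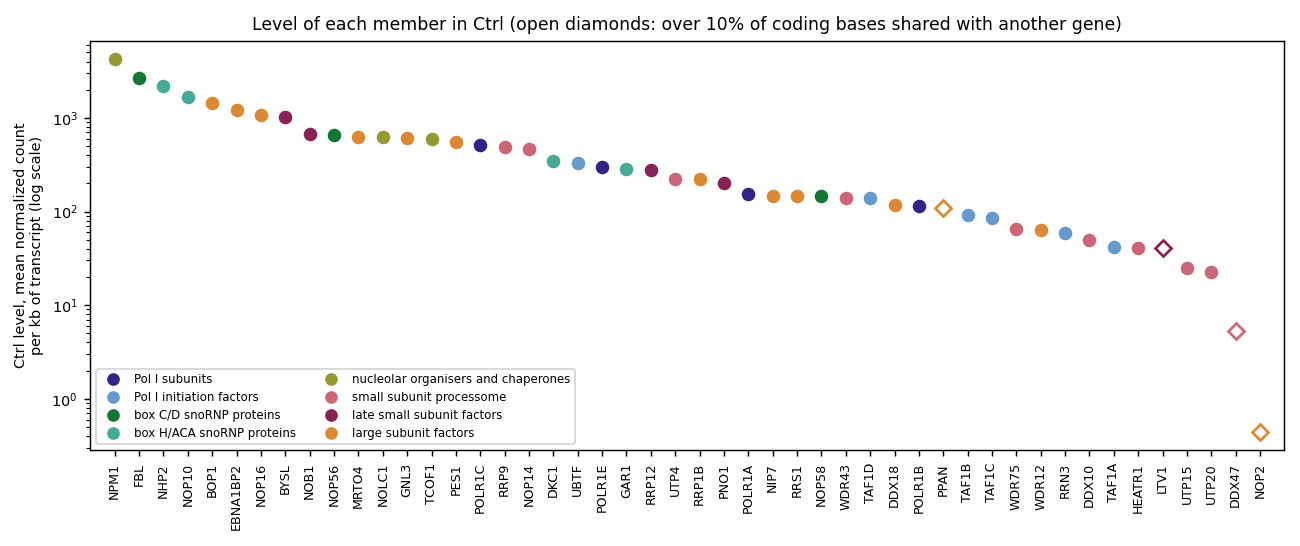
Level in Ctrl of each of the 48 genes, as mean normalized count per kilobase of the longest transcript on a log axis, coloured by role, with open diamonds for the 4 genes that share over 10% of their coding bases with another gene. Each point is the authors' mean over the Ctrl libraries with no spread; NPM1 is highest at 4219 and NOP2 lowest at 0.44.

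In untreated cells the set spanned a wide range of levels. Per kilobase of the longest annotated transcript, the Ctrl level computed from the authors' deposited compound 1 table was 4219 for NPM1, a nucleolar histone and ribosome chaperone. It was 2690 for FBL, the rRNA 2′-O-methyltransferase of the box C/D snoRNPs, and 2203 and 1670 for NHP2 and NOP10, small proteins of the box H/ACA snoRNPs. These 4 genes also led when the summed exon length was used in place of the longest transcript. BOP1 and EBNA1BP2, large subunit factors, followed in the plot of Ctrl levels at 1437 and 1228 per kilobase. The Pol I apparatus was lower: its 10 genes ran from 512 per kilobase for POLR1C, a subunit shared with Pol III, through 326 for UBTF to 58.3 for RRN3 and 41.8 for TAF1A. Over summed exon length POLR1C was at 226, below POLR1E at 268 and UBTF at 233, and NPM1 was at 1938 and EBNA1BP2 at 518, so the order of the set depends on the length used. UTP15 and UTP20, components of the small subunit processome, stood at 24.8 and 22.7. No spread between libraries can be set beside these levels, so neighbours in the order are not told apart.

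The 2 lowest Ctrl levels belonged to genes whose coding sequence overlaps another gene. In the GENCODE 29 annotation all coding bases of DDX47, an RNA helicase (chr12:12813316-12829981, plus strand), overlap exons of APOLD1 on the same strand, and its level was 5.35 per kilobase. For NOP2, an rRNA cytosine methyltransferase (chr12:6556863-6568691, minus strand), the overlapped share was 91.9% and the level 0.44 per kilobase. PPAN, a large subunit factor, shares 94.3% with its readthrough gene PPAN-P2RY11, and LTV1, a late factor of the small subunit, shares 45.1% with other genes. The other 44 genes share at most 3.84%. The rule for reads in shared exons is one not given in the sources used here, so values of these 4 genes are uncertain and the part of the overlap in them was not tested. For NOP2 the authors' deposited compound 1 table gives mean levels of 1.35 in Ctrl and 2.37 with compound 1, a log2 fold change of 0.81 ± 1.67 (SE).

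**Figure D2:**
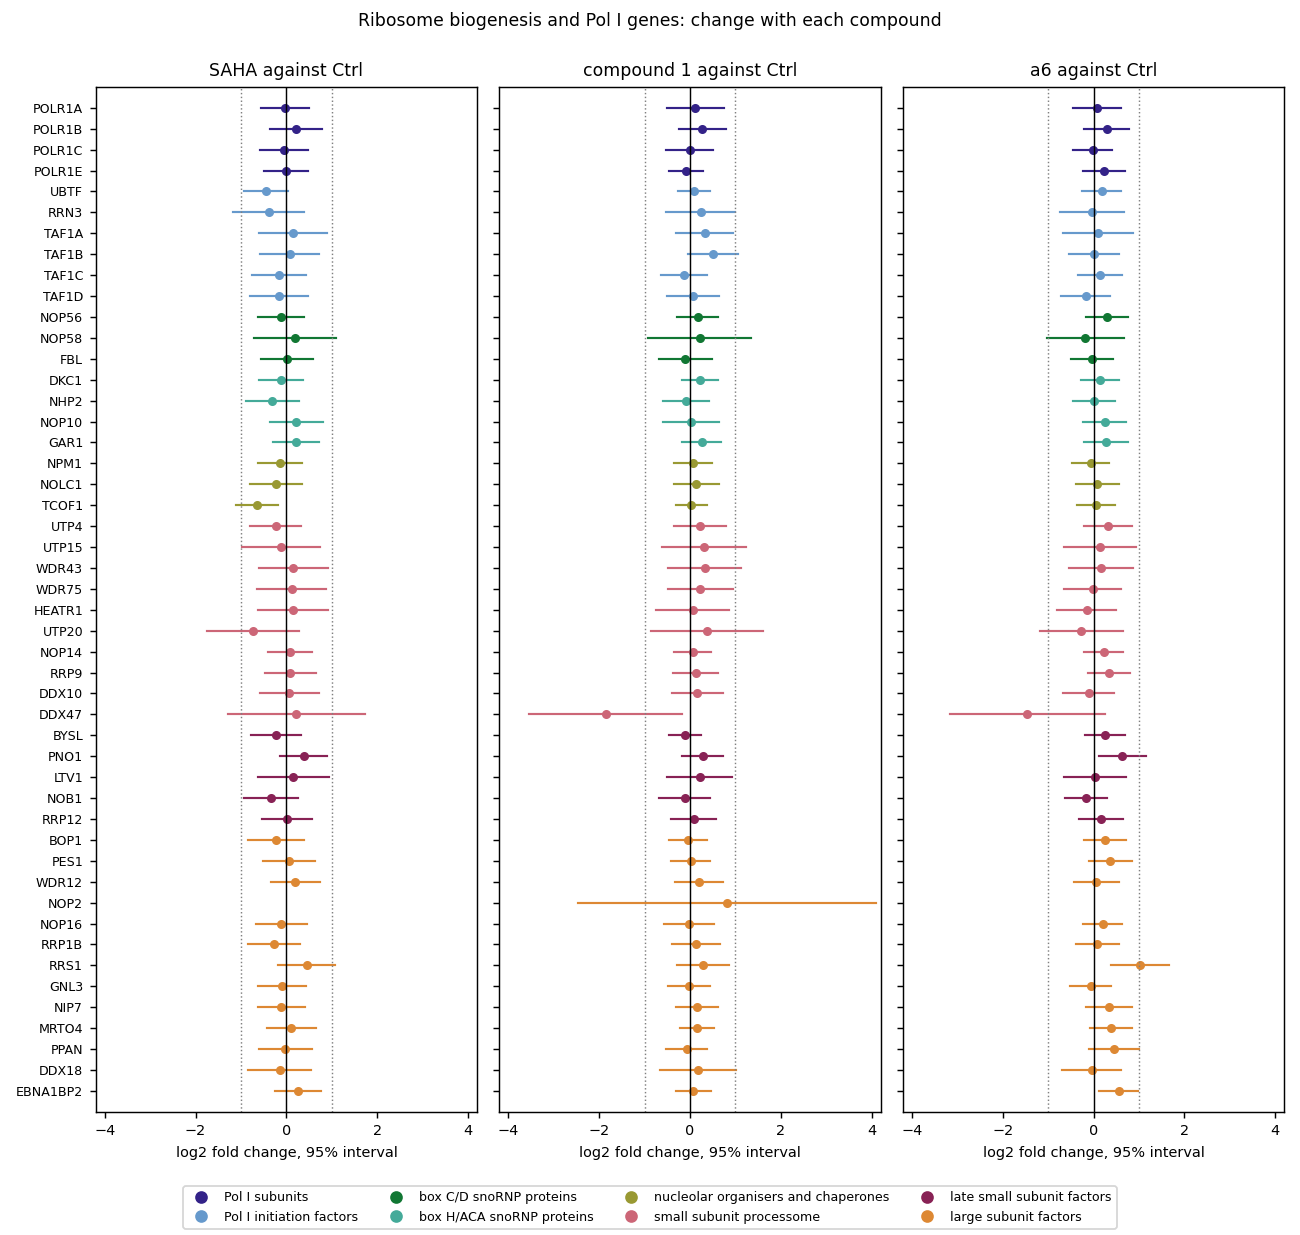
Log2 fold change against Ctrl of each gene with SAHA, compound 1 and a6, grouped by role, with bars of 95% from the authors' standard errors. Most points lie within 0.5 of 0; TCOF1 and UTP20 stand lowest with SAHA, RRS1 highest with a6, and DDX47 lowest with compound 1 and a6.

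None of the 4 Pol I subunit genes in the set was called, and their fold changes lay between -0.09 and 0.29 on the log2 scale. The computed mean level of POLR1A, the largest subunit (chr2:86020216-86106155, minus strand), was 1969 in Ctrl and 1914 with SAHA, 2137 with compound 1 and 2024 with a6. Its log2 fold changes in the authors' deposited tables were -0.04 ± 0.27, 0.12 ± 0.32 and 0.07 ± 0.27 (SE). POLR1B, the second catalytic subunit, was at 0.21, 0.27 and 0.29 in the authors' deposited tables in the same order, POLR1C at -0.05, -0.01 and -0.02, and POLR1E at -0.02, -0.09 and 0.23. For all 4 subunits and all 3 compounds the 95% interval excluded a 2-fold change either way.

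Fold changes of the 6 initiation factors had standard deviations of 0.24 with SAHA, 0.22 with compound 1 and 0.13 with a6 on the log2 scale. UBTF, the upstream binding factor that keeps ribosomal DNA open (chr17:44205033-44221626, minus strand), had a computed mean level of 1631 in Ctrl and 1194 with SAHA. Its level was 1725 with compound 1 and 1802 with a6, so SAHA stood lowest of the 4 groups. The log2 fold change with SAHA in the authors' deposited table was -0.45 ± 0.24 (SE), with an adjusted p of 0.317, and that with a6 was 0.18 ± 0.22. RRN3, the factor that links Pol I to its promoter, was at -0.39 ± 0.40 with SAHA, 0.23 ± 0.39 with compound 1 and -0.04 ± 0.36 with a6 in the authors' deposited tables. Of the SL1 subunits, TAF1B had its highest value with compound 1, a computed level of 313 against 221 in Ctrl and a log2 fold change of 0.50 ± 0.28 in the authors' deposited table, which did not pass (adjusted p = 1.00). TAF1A, TAF1C and TAF1D lay between -0.18 and 0.32 with all 3 compounds in the authors' deposited tables.

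None of the 7 snoRNP protein genes was called. NOP56, a core box C/D protein, had log2 fold changes of -0.12 ± 0.26, 0.17 ± 0.23 and 0.30 ± 0.24 (SE) with SAHA, compound 1 and a6 in the authors' deposited tables. In the same order the authors' deposited tables put FBL at 0.01, -0.10 and -0.04, and NOP58, a core box C/D protein like NOP56, at 0.18 ± 0.46, 0.21 ± 0.58 and -0.18 ± 0.43, whose intervals do not exclude a 2-fold change with any compound. Box H/ACA snoRNPs carry out pseudouridylation. Their catalytic subunit DKC1 was at -0.11, 0.22 and 0.14 and GAR1 at 0.21, 0.25 and 0.27 in the authors' deposited tables. The authors' deposited tables put NHP2 at -0.32 ± 0.30 with SAHA, and NOP10 ranged from 0.03 with compound 1 to 0.24 with a6.

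Among nucleolar organisers, TCOF1 had the smallest p of the set with SAHA. TCOF1 (treacle; chr5:150357629-150400308, plus strand) recruits UBTF and Pol I to ribosomal DNA and is the gene of Treacher Collins syndrome. Its computed mean level was 3155 in Ctrl and 2014 with SAHA, and it was 3211 with compound 1 and 3186 with a6. SAHA was thus the low group and the other 3 means lay together. The log2 fold change with SAHA in the authors' deposited table was -0.65 ± 0.24 (SE, 95% interval -1.12 to -0.18), with an unadjusted p of 0.00712 and an adjusted p of 0.0788, so TCOF1 did not pass the test. With a trend of fold change on GC content removed, the value was -0.53 and the adjusted p of the Wald test was 0.200. NPM1, the most abundant gene of the set (chr5:171387116-171411137, plus strand), had computed levels of 7417 in Ctrl, 6741 with SAHA, 7798 with compound 1 and 6950 with a6. Its log2 fold changes in the authors' deposited tables were -0.14 ± 0.25, 0.07 ± 0.21 and -0.06 ± 0.21. NOLC1, a chaperone of snoRNPs, was at -0.23, 0.14 and 0.08 in the authors' deposited tables.

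The small subunit processome genes, which cleave and fold the first part of the precursor, gave median log2 fold changes of 0.08 with SAHA, 0.19 with compound 1 and 0.06 with a6. UTP20 had a computed mean level of 203 in Ctrl and 122 with SAHA, 264 with compound 1 and 166 with a6. With a standard error of 0.52, its log2 fold change of -0.74 with SAHA in the authors' deposited table had an adjusted p of 0.495. RRP9, a snoRNP protein of the processome, was at 0.09, 0.12 and 0.34 ± 0.24 with SAHA, compound 1 and a6, and UTP4 at -0.24, 0.22 and 0.32 ± 0.27, in the authors' deposited tables. WDR43, NOP14, WDR75, HEATR1, DDX10 and UTP15, parts of the processome or helicases that act with it, lay between -0.15 and 0.32 with all 3 compounds in the authors' deposited tables.

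DDX47 was the gene with the lowest value with compound 1 and with a6, at low counts. Its computed mean level was 14.4 in Ctrl, 16.6 with SAHA, 3.98 with compound 1 and 5.10 with a6. The log2 fold changes in the authors' deposited tables were 0.21 ± 0.77, -1.85 ± 0.86 and -1.46 ± 0.87 (SE). The value with compound 1 had an unadjusted p of 0.0311 and did not pass (adjusted p = 1.00). It put DDX47 among the 20 genes of the authors' deposited list of genes lower with compound 1, a list of changes of 2-fold or more at an unadjusted p under 0.05. APOLD1, whose exons cover its coding bases, had a mean count of 119 in the same table.

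Late small subunit factors act from the nucleus to the cytoplasm. PNO1, which guides the last cleavage at the end of the small rRNA (chr2:68157844-68176238, plus strand), had computed mean levels of 456 in Ctrl and 704 with a6 in the a6 table. In the other tables it was 605 with SAHA and 563 with compound 1, each against 465 in Ctrl. All 3 treated means thus lay above Ctrl, with a6 highest. Its log2 fold changes in the authors' deposited tables were 0.38 ± 0.26 with SAHA, 0.28 ± 0.23 with compound 1 and 0.63 ± 0.26 with a6 (SE), the last with an unadjusted p of 0.0172 and an adjusted p of 0.465. NOB1, the nuclease of that cleavage, was at -0.34 ± 0.30, -0.12 ± 0.29 and -0.17 ± 0.24 in the authors' deposited tables. The authors' deposited tables put BYSL, a partner of NOB1 on the pre-ribosome, at -0.23, -0.12 and 0.25, RRP12, an export factor, at 0.01, 0.08 and 0.17, and LTV1 at 0.15, 0.21 and 0.03.

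The large subunit factors had the highest median of the 8 roles with a6, at 0.30 with 10 of 12 measured genes above 0, against -0.06 with SAHA and 0.13 with compound 1. Among 57 other large subunit factors outside the set, the median with a6 was 0.10, with 39 above 0. Among 45 other small subunit factors it was 0.09, with 31 above 0. RRS1, which helps to place the smallest rRNA and its proteins in the large subunit, had a computed mean level of 247 in Ctrl and 502 with a6. It was 344 with SAHA and 307 with compound 1, each against 252 in Ctrl, so a6 was the highest of the 4 groups. The log2 fold change with a6 in the authors' deposited table was 1.02 ± 0.33 (SE, 95% interval 0.38 to 1.67), with an unadjusted p of 0.00187 and an adjusted p of 0.155. RRS1 is among the 150 genes of the authors' deposited list of genes higher with a6. With SAHA and compound 1 the authors' deposited tables give 0.45 ± 0.32 and 0.29 ± 0.29.

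EBNA1BP2 (chr1:43164175-43270936, minus strand), a nucleolar partner of RRS1 in large subunit assembly, had computed mean levels of 1807 in Ctrl and 2647 with a6. The log2 fold changes in the authors' deposited tables were 0.25 ± 0.26, 0.08 ± 0.20 and 0.55 ± 0.22 (SE) with SAHA, compound 1 and a6, and the last had an adjusted p of 0.405. PPAN was at 0.45 ± 0.28, MRTO4 at 0.38 ± 0.23, PES1 at 0.37 ± 0.24, NIP7 at 0.34 ± 0.26 and BOP1 at 0.26 ± 0.24 with a6 in the authors' deposited table. PES1, BOP1 and WDR12 form the PeBoW complex of large subunit maturation, and WDR12 was at 0.06 ± 0.25 with a6 in the authors' deposited table. NOP16, RRP1B, GNL3 and DDX18, further nucleolar factors of the large subunit, lay between -0.06 and 0.20 with a6 in the authors' deposited table. With SAHA the large subunit factors ran from -0.27 for RRP1B to 0.45 for RRS1.

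**Figure D3:**
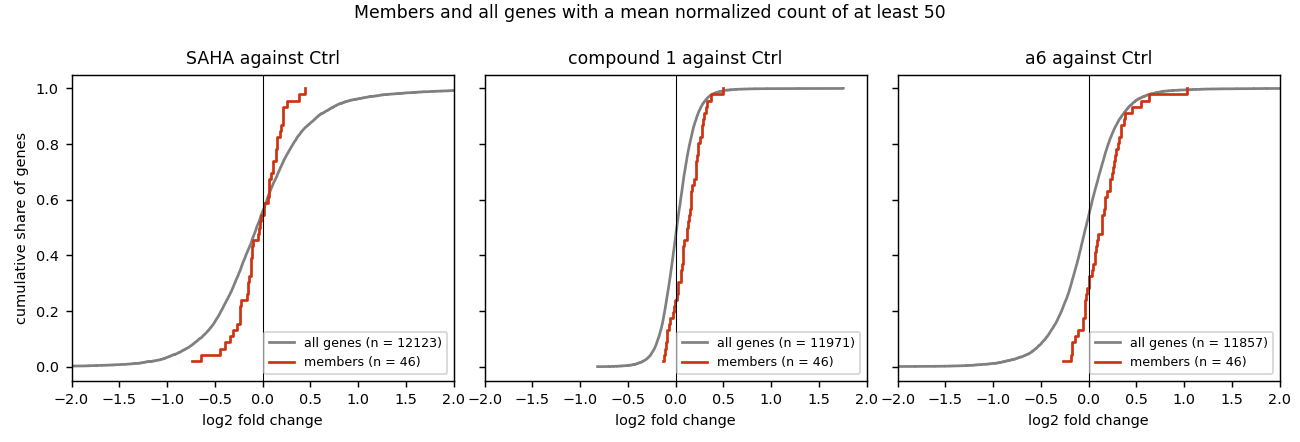
Cumulative share of genes by log2 fold change, for the set beside all genes whose mean count was 50 or more, for SAHA, compound 1 and a6. The medians of the set's 46 genes with that count are -0.03, 0.13 and 0.14, and those of all such genes -0.06, 0.01 and -0.03.

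As a group, the median log2 fold change of the measured genes in the authors' deposited tables was -0.03 with SAHA, against -0.01 over all genes, and 22 of 47 lay above 0, against 49.3% of all genes. With compound 1 it was 0.13 against 0.01, with 36 of 48 above 0 against 51.4%. With a6 it was 0.14 against -0.03, with 32 of 47 above 0 against 45.9%. The 3 comparisons share their Ctrl libraries, so these shifts are not separate evidence. With a trend of fold change on GC content removed, the medians were 0.01, 0.07 and 0.14 with SAHA, compound 1 and a6. The 13 mitochondrially encoded genes, a check on RNA composition, had a median of -0.23 with compound 1 and 0 of 13 above 0, and medians of 0.06 with SAHA and -0.01 with a6. Their part in the values of the set was not tested.

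For most genes of the set the error limited the change to less than 2-fold. Among its 46 genes whose mean count was 50 or more, the 95% interval lay within 2-fold either way for 41 with SAHA, 40 with compound 1 and 41 with a6. The same held for 55.3%, 82.8% and 78.2% of all genes with that count. The set's fold changes had standard deviations of 0.24, 0.15 and 0.24 on the log2 scale with SAHA, compound 1 and a6. Median standard errors of single genes were 0.29, 0.26 and 0.25, as large as or larger than that spread.

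**Figure D4:**
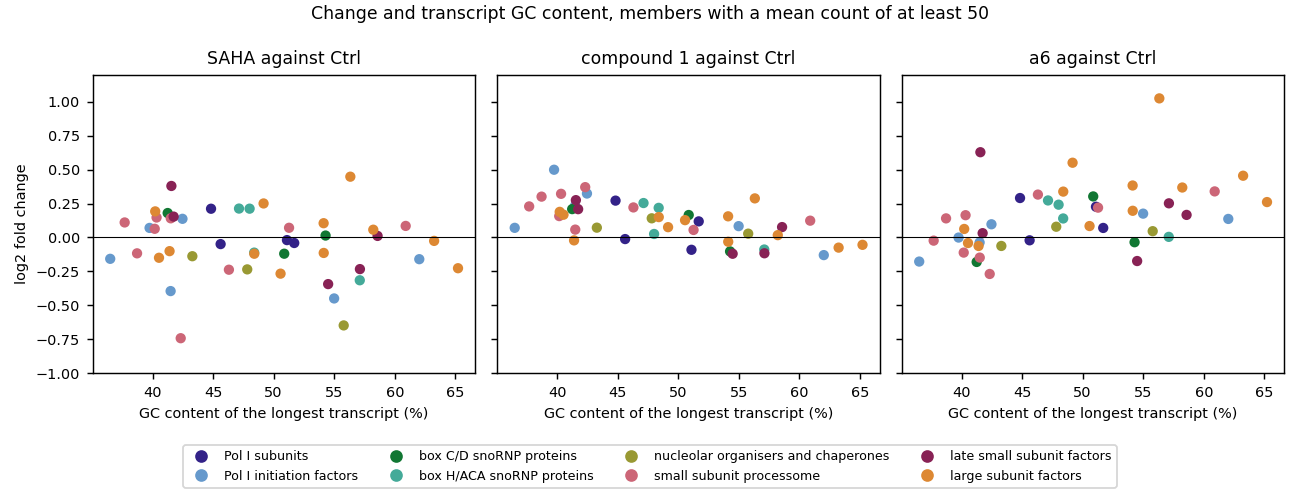
Log2 fold change against GC content of the transcript, in percent, for the 46 genes of the set whose mean count was 50 or more and each compound. Values fall with GC content with compound 1 (Spearman rho -0.61) and are higher at high GC content with a6 (rho 0.51).

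Fold changes within the set varied with the GC content of the transcripts with compound 1 and a6. Across the 46 genes whose mean count was 50 or more, Spearman's rho between GC content and log2 fold change was -0.23 with SAHA, -0.61 with compound 1 and 0.51 with a6, and Pearson's r was -0.18, -0.62 and 0.44. These describe genes that share the same libraries, not independent replicates. Over all genes with that count, rho was -0.24, -0.40 and 0.05. With a6, 21 of the 23 genes with a GC content above 48.2% lay above 0, at a median of 0.22, and 11 of the 23 below it. With compound 1, 14 of 23 at high GC content lay above 0, at a median of 0.06, and 21 of 23 at low GC content, at 0.21. BOP1, PPAN and TAF1C are at the high end and TAF1D, WDR75 and UTP15 at the low end. What part GC content has in the fold changes was not tested.

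**Figure D5:**
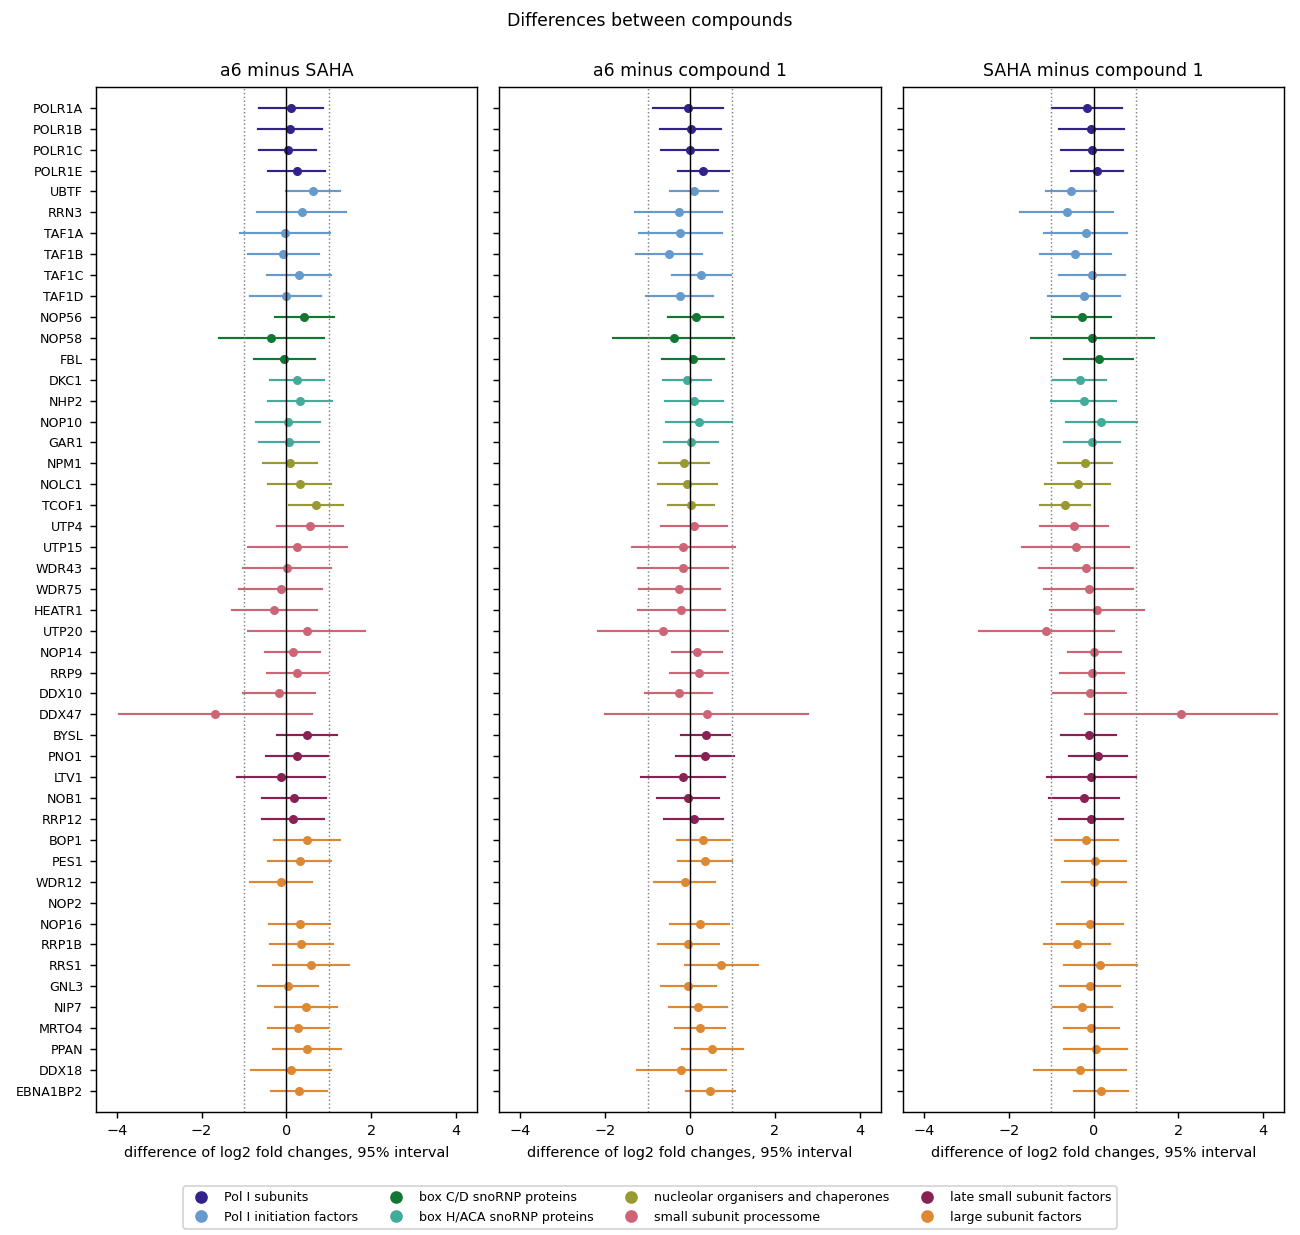
Differences in log2 fold change between compounds (a6 minus SAHA, a6 minus compound 1, SAHA minus compound 1) for genes of the set, with 95% intervals from summed squared standard errors. TCOF1 stands at 0.69 for a6 minus SAHA and -0.68 for SAHA minus compound 1, with intervals that exclude 0 before adjustment.

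The 3 compounds, at the same dose and time, were compared in 3 pairs through their fold changes, with p-values adjusted over all genes within each pair. By this z test, 0 of 47 genes of the set were called in any pair, against 0.256% of all genes for a6 minus SAHA, 0.0328% for a6 minus compound 1 and 1.06% for SAHA minus compound 1. At an unadjusted p under 0.05 in this test, TCOF1 was the only gene of the set in the pairs with SAHA, against 5.56% and 7.26% of all genes, and there was 0 for a6 minus compound 1, against 1.46%. For TCOF1 the difference a6 minus SAHA was 0.69 ± 0.32 on the log2 scale (SE, 95% interval 0.06 to 1.33), with an adjusted p of 0.771. SAHA minus compound 1 was -0.68 ± 0.30 (95% interval -1.26 to -0.09), with an adjusted p of 0.523. The test treats the shared Ctrl as independent. With an error correlation of 0.5 between comparisons, the adjusted p of TCOF1 in SAHA minus compound 1 was 0.038, a call, against 5.33% of all genes called in this way. That of a6 minus SAHA was 0.060. With this correlation more genes had an unadjusted p under 0.05. They were TCOF1, UBTF, UTP4 and DDX47 in a6 minus SAHA, against 14.8% of all genes. In SAHA minus compound 1 they were TCOF1, UBTF and DDX47, against 16.7%. In a6 minus compound 1 they were RRS1, EBNA1BP2 and PPAN, against 5.55%.

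For UBTF and RRS1 the 95% intervals of the differences between compounds included 0 when the shared Ctrl was treated as independent. For UBTF, a6 minus SAHA was 0.62 ± 0.33 (adjusted p = 0.925), and SAHA minus compound 1 was -0.53. For RRS1, a6 minus compound 1 was 0.74 ± 0.44, with a 95% interval of -0.13 to 1.60. With an error correlation of 0.5 these intervals excluded 0. The z test then gave UBTF an unadjusted p of 0.0074 in a6 minus SAHA and 0.015 in SAHA minus compound 1. For RRS1 in a6 minus compound 1 the unadjusted p was 0.019. None was called, at adjusted p of 0.120, 0.144 and 0.664 in that order. The interval of the difference lay within 2-fold either way for 20 of 47 genes in a6 minus SAHA, 29 in a6 minus compound 1 and 26 in SAHA minus compound 1. With an error correlation of 0.5 these counts were 35, 39 and 38. For the rest a 2-fold difference between compounds is not excluded. The median difference was 0.25 for a6 minus SAHA, against 0.01 over all genes, 0.02 for a6 minus compound 1, against -0.05, and -0.09 for SAHA minus compound 1, against -0.03.

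Other genes of the pathway were read in the same way. Outside the 48, 147 genes were measured among other Pol I and shared subunits, Pol III subunits and factors, other small and large subunit factors and the RNA exosome. By the authors' DESeq2 Wald test 1 of them fell with SAHA, against 7.55% of all genes called, and 0 were called with compound 1 or a6. At an unadjusted p under 0.05, 3 were higher and 3 lower with SAHA, against 10.2% and 8.27% of all genes. There were 0 with compound 1, and 4 higher and 4 lower with a6, against 3.06% and 4.35% of all genes. The gene that fell was GTF3C6, a subunit of the Pol III factor TFIIIC, with a computed mean level of 182 in Ctrl and 75.1 with SAHA. In the authors' deposited table its log2 fold change was -1.28 ± 0.36 (SE), with an adjusted p of 0.008. The median of the 147 was -0.04 with SAHA, 0.06 with compound 1 and 0.10 with a6, where 99 lay above 0.

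Among regulators of rRNA synthesis, KDM2B, a histone demethylase known to act at ribosomal DNA, fell with SAHA, with computed mean levels of 588 in Ctrl and 336 with SAHA and a log2 fold change of -0.81 ± 0.27 in the authors' deposited table (adjusted p = 0.039). With the GC trend removed its value was -0.66 and it was no longer called (adjusted p = 0.138). MYC was at 0.27 ± 0.34 with SAHA, 0.18 ± 0.49 with compound 1 and -0.33 ± 0.30 with a6 in the authors' deposited tables, and was called with none.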

How the data were processed

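The files used were 3 tables comparing each compound with Ctrl and the authors' lists of changed and G4-related genes. Per the file headers, each gene has 5 kinds of value from the authors: its mean normalized count (a signal), its log2 fold change, the standard error of that change, the Wald statistic (a score) and the p-value, raw and adjusted. The headers do not say which libraries the mean count covers. It was taken as those of the compound and Ctrl, and Ctrl levels so computed nearly matched between comparisons. The G4-related lists give no result here. Cutadapt, DESeq2 and GRCh38 (hg38) are named in the submitters' processing notes. Aligner, read counter, use of strand and versions: not given in the sources used here. Columns holding values of single libraries numbered 0.

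The test of each gene was the authors' deposited DESeq2 adjusted p-value, under 0.05, which was checked to be a Benjamini-Hochberg adjustment over each table. Mean levels were computed from the mean count and fold change for groups of equal size. The 95% intervals are the deposited standard errors times 1.96. Differences between compounds used a two-sided z test on summed squared standard errors, adjusted over all genes. The z test was tested on simulated data. A lowess trend (share 0.3) on GC content was removed as an alternative. Positions, transcript lengths and GC content were read from GENCODE 29 on GRCh38. Symbols matched for 98.3% of genes in the SAHA table, 97.0% in that of compound 1 and 98.9% in that of a6, and for all 48 genes of the set. Python 3.11.15, pandas 2.3.3, SciPy 1.17.1 and statsmodels 0.14.6 were used.

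The genes of the set and the other lists were chosen with earlier results of these data known. Genes named are all Pol I genes, the 5 highest and 5 lowest Wald statistics per compound, the 3 highest and lowest per difference, the highest and lowest level of each role, and the 2 highest and lowest called genes of each other list; the rest are given so that each gene of the set is accounted for, and some were picked after their values were seen. A result that this rule takes from the other lists is not reported here. Alternatives were a 2-fold limit, other thresholds and adjustments, count minimums of 10 and 50, centring, GC content, the authors' lists, gene length and an error correlation of 0.5; leaving out the genes with shared coding bases was chosen after seeing the data.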

Additional observations from a re-analysis of the deposited data

How the results depend on the processing

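Counts of called genes of the set were 0 under a 2-fold limit, an adjusted p under 0.01, count minimums of 10 and 50, centring and removal of the GC trend. They moved where the rule was loosened. With an unadjusted p, 1 gene was lower with SAHA, 1 lower with compound 1 and 3 were higher with a6, and between compounds 1 was higher in a6 minus SAHA and 1 lower in SAHA minus compound 1. The authors' lists held 1 lower with compound 1 and 1 higher with a6. With an error correlation of 0.5, 1 was lower in SAHA minus compound 1 by adjusted p. Among single values 1 lost its call (KDM2B, -0.66 with the GC trend removed), and 19 of 48 levels per kilobase moved by more than 1.5 times with summed exon length. With an error correlation of 0.5, an alternative chosen after seeing the data, 35 in place of 20 intervals lay within 2-fold in a6 minus SAHA. The median of the set with SAHA, -0.03, was 0.01 with the GC trend removed, so its sign is not settled, and that with compound 1 went from 0.13 to 0.07. No paired analysis was possible because the tables hold comparisons and no value per library, and no replicate could be left out for the same reason. The tables give no depth per library.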
